A study of Rattus norvegicus with 9 samples.

Results

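Mesothelial cells line the organs of the body cavities, and simple epithelia such as those of pancreatic ducts and acini carry keratin filaments. A set of 9 genes used to mark these cells was read in rat pancreatic stellate cells, the fibroblast-like cells of the pancreas, and 7 of them had a value on the arrays out of 14506 genes tested. The 7 are Wt1, Msln and Upk1b of the 5 mesothelial names and Krt7, Krt8, Krt18 and Krt19, the 4 keratins. Members were taken as entries of the value table that the array's probe table pairs with that symbol alone, keeping the entry with the highest mean for each gene, and Upk3b and Lrrn4 were not analysed here. Stellate cells of male Sprague Dawley rats, isolated by centrifugation in a density gradient, were seeded in 10 cm dishes in medium with 10% serum, on all surfaces alike. They were cultured for 72 hours on Matrigel (2 arrays), a basement membrane extract, on collagen I (3 arrays), the main fibrillar collagen of scar tissue, or on uncoated plastic (4 arrays). Whether the arrays of a surface stand for separate animals or isolations is not stated, so each p-value reflects the spread among these arrays alone, which may be technical. A letter in the sample titles, whose meaning is not given, recurs across surfaces: A and S on Matrigel, A, P and Z on collagen I, and all 4 letters on plastic.

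All levels are the deposited RMA values on the log2 scale. Array medians lay between 4.08 and 4.18, and arrays of 1 surface correlated at r = 0.991 to 0.996 across genes, against 0.975 to 0.989 for arrays of different surfaces. A level under 4.25, the 40th percentile of the mean level over all genes, is called dim here, as a mark for weak signal in place of a detection call. Of 14 stellate cell markers, 12 had a mean level over that mark. Among them was Vim, the vimentin gene of mesenchymal intermediate filaments, at 12.19 on Matrigel, 12.55 on collagen I and 12.55 on plastic. Also over the mark were 14 of 16 macrophage markers and 8 of 15 islet markers, so it does not tell these cell types apart. The insulin genes Ins1 and Ins2 averaged 9.8 and 8.47 on plastic. The surfaces were compared with limma over all 9 arrays, with p-values adjusted over the 14506 genes, and a call means an adjusted p under 0.05. Both comparisons with plastic share the same 4 plastic arrays. In such bulk samples, fewer cells of a type and less RNA per cell cannot be told apart.

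Wt1 encodes a zinc-finger transcription factor needed for the kidney, gonad and mesothelium, and lineage tracing in mice has placed Wt1-positive mesothelium upstream of stellate cells of the liver. Msln encodes mesothelin, a protein tethered to the surface of mesothelial cells. Upk1b encodes a tetraspanin of the uroplakin plaques of the bladder lining, which mesothelium also expresses. Keratin filaments assemble from equal parts of a type II and a type I chain: Krt8 pairs with Krt18 in simple epithelia such as acini and ducts, while Krt7 (type II) and Krt19 (type I) mark ducts and mesothelium.

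Krt8 and Krt18 are shown by sequence because they encode partner chains, lie close together on chromosome 7 (RefSeq, GRCr8) and took their highest level on the same array. Of the 9 names, 6 have a promoter entry in RefSeq, and these windows precede the annotated gene starts. The Krt8 window runs from 250 to 91 bases before the start (chr7:135010430-135010589, minus strand) and the Krt18 window covers the 250 bases before it (chr7:135035918-135036167, plus strand). Capitals mark matches to 4 motifs searched on both strands: the TATA box (TATAAA), the GC box (GGGCGG), the site shared by EGR factors and WT1 (GCGGGGGCG) and the AP-1 site (TGANTCA, N being any base).
Krt8: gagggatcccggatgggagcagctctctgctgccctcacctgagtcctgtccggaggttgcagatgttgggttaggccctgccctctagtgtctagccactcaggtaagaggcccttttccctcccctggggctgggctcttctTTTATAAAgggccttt
Krt18: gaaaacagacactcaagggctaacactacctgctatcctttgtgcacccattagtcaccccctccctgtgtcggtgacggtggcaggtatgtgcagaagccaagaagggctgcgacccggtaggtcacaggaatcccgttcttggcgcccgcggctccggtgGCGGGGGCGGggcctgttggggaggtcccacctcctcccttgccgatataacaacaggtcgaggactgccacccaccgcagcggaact
The Krt8 window holds the TATA box on both strands, in overlapping matches, a motif found in 13.1% of 27457 such windows of 250 bases. The Krt18 window holds the EGR/WT1 site, found in 2.49% of windows, overlapping a GC box, found in 32.4%. The AP-1 letters, in 6.36% of windows, occur in neither. These are matches of letters only and say nothing on binding.

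Wt1 was lower on both matrices than on plastic, the only member that passed the test in either comparison. Its level was 6.97 and 7.53 on Matrigel and 7.30, 7.13 and 7.43 on collagen I, against 8.40, 8.06, 8.40 and 8.37 on plastic. Every matrix array lay below every plastic array, and the arrays of the 2 matrices overlapped. Wt1 (Entrez gene 24883) averaged 7.25 ± 0.39 on Matrigel (SD, n = 2) and 8.31 ± 0.17 on plastic (SD, n = 4), a fall of 1.06 ± 0.17 on the log2 scale (SE) or 2.08-fold, with a 95% interval of 1.60 to 2.71-fold (limma adjusted p = 0.00602). On collagen I it averaged 7.29 ± 0.15 (SD, n = 3) against the same plastic level, a fall of 1.02 ± 0.15 or 2.03-fold, with a 95% interval of 1.61 to 2.56-fold (limma adjusted p = 0.00490). Between Matrigel and collagen I Wt1 differed by -0.04 ± 0.18, with a 95% interval from -0.44 to 0.36 (limma adjusted p = 0.948).

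Within each title letter the difference was negative, which had to follow because every matrix array lay below every plastic array. Only the sizes are informative. Matrigel minus plastic was -1.43 in letter A and -0.88 in letter S, and collagen I minus plastic was -1.10 in A, -0.92 in P and -0.94 in Z. Both calls held in all 19 alternatives tried for each, with adjusted p up to 0.0421 for Matrigel (without Matrigel replicate 1, where the difference was -0.78) and up to 0.0261 for collagen I. The level of Wt1 was well over the dim mark on every array.

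**Figure D1:**
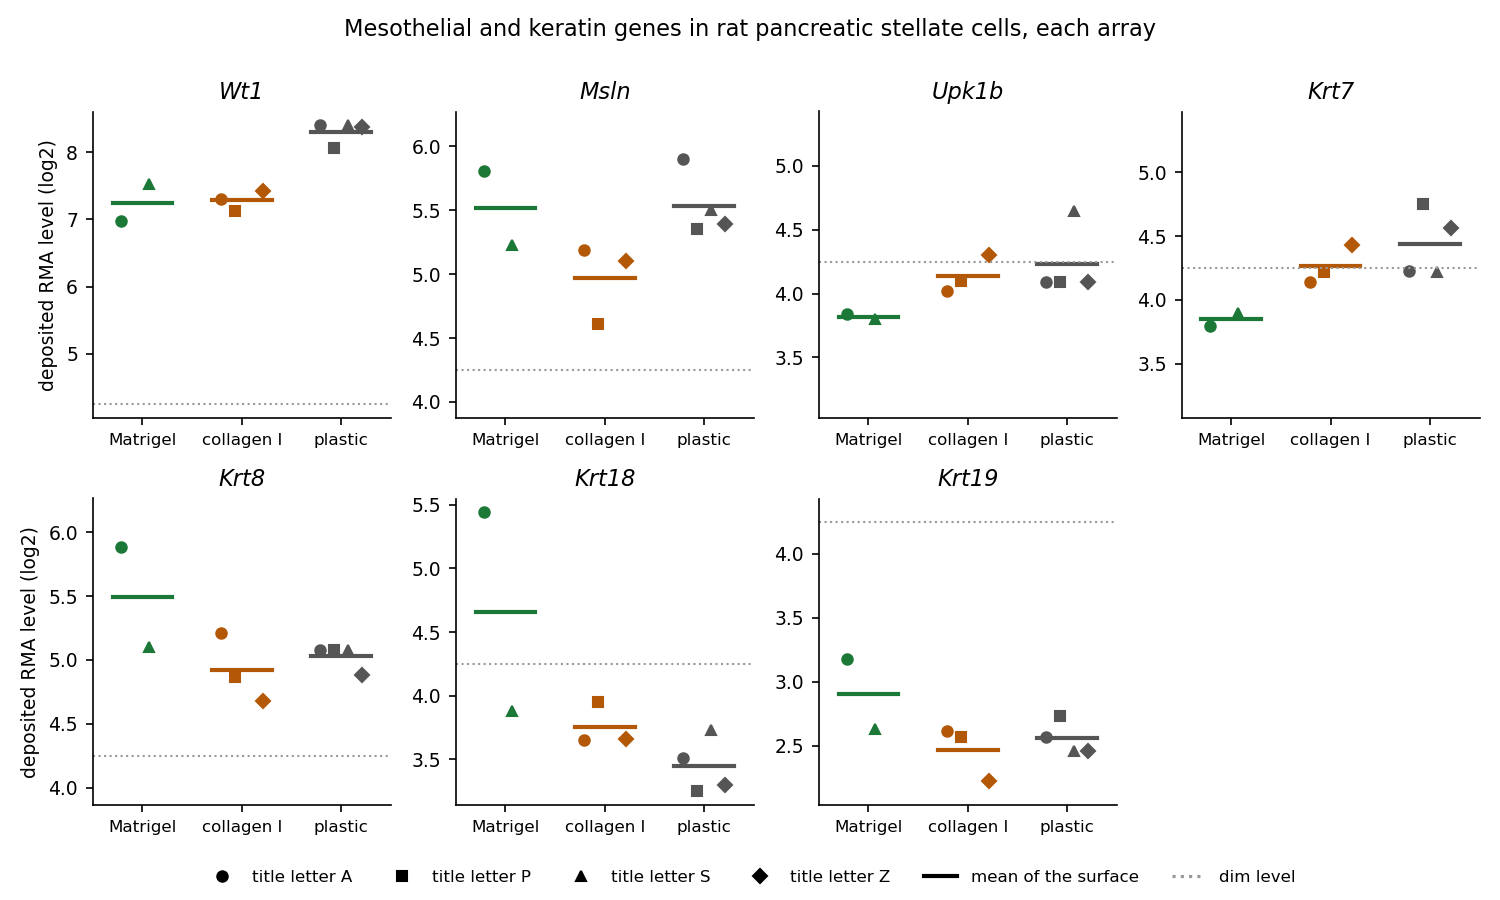
Deposited RMA level (log2, vertical axis) of the 7 members on each array of Matrigel, collagen I and plastic. Points are arrays with a symbol for the title letter, bars are surface means and the dotted line is the dim level of 4.25; each panel has its own range. Wt1 on both matrices lies between 6.97 and 7.53, under all plastic arrays (8.06 to 8.40), and Krt18 is high on the Matrigel array of letter A alone (5.44).

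Of the 7 members, 1 fell and 0 rose on Matrigel against plastic, where 10.4% of all genes were called, 4.52% higher and 5.85% lower. With so few members a count of 1 is no result about the set. The same count, 1 fallen and 0 risen, was found on collagen I against plastic, where 6.12% of all genes were called, 2.95% higher and 3.17% lower. Between Matrigel and collagen I the limma test called 0 of the 7 members and 2.67% of all genes, 1.21% higher and 1.45% lower. Unadjusted p was under 0.05 for 5 of the 7 members, whose limma adjusted p was 0.237 or more. The share of all genes at that unadjusted threshold was not counted in this fit. With only these surfaces in the fit, 2094 of 14506 genes had an unadjusted p under 0.05. The arrays did not overlap between Matrigel and plastic for 5 members, 2 higher and 3 lower, as for 30.2% of all genes (13.6% higher and 16.6% lower). Collagen I and plastic did not overlap for 2 members, both lower, as for 17.2% of all genes (8.04% higher and 9.2% lower). Matrigel and collagen I did not overlap for 4 members, 2 higher and 2 lower, as for 29.5% of all genes (13% higher and 16.4% lower). Across the 7 members the median difference was -0.02 on Matrigel and -0.11 on collagen I against plastic, beside -0.01 and 0.00 over all genes. It was 0.44 for Matrigel against collagen I, beside -0.02 over all genes.

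**Figure D2:**
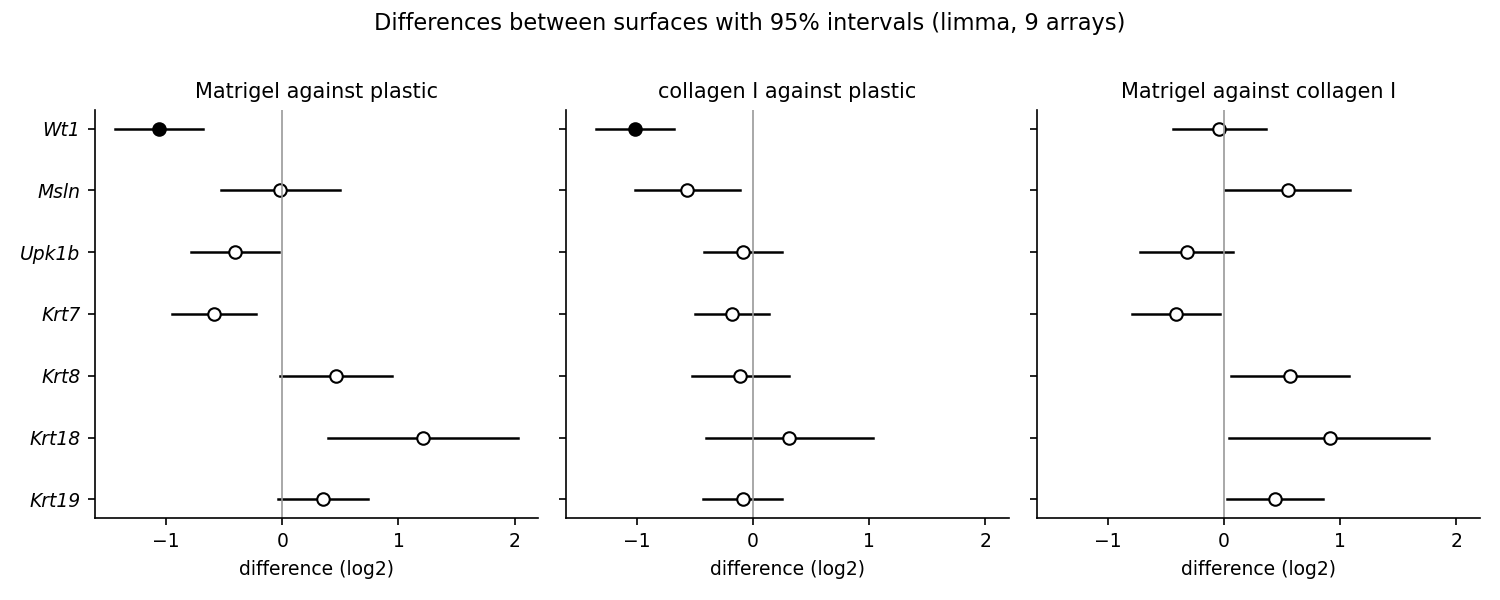
Difference between surfaces (log2, horizontal axis) for each member with its 95% interval from limma over 9 arrays, in 3 panels for the 3 comparisons. Filled points passed an adjusted p of 0.05: Wt1, at -1.06 on Matrigel and -1.02 on collagen I against plastic; all other points are open.

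Msln did not pass the test in any comparison, and its lowest levels were on collagen I. The mesothelin gene measured 5.81 and 5.23 on Matrigel and 5.19, 4.61 and 5.10 on collagen I, against 5.90, 5.35, 5.50 and 5.39 on plastic. The 3 collagen arrays lay below all plastic arrays and below both Matrigel arrays, whereas Matrigel and plastic overlapped. The difference was -0.57 ± 0.20 for collagen I against plastic (limma adjusted p = 0.158). With the title letter as a fixed block, a pairing that the labels do not state, it was -0.60 (limma adjusted p = 0.0294). For Matrigel against plastic it was -0.02 ± 0.23 with a 95% interval from -0.53 to 0.50 (limma adjusted p = 0.980). Matrigel minus collagen I was 0.55 ± 0.24 (limma adjusted p = 0.288). On each surface that holds it, the array of letter A gave the highest Msln level.

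Upk1b was dim on 7 of 9 arrays. Its level was 3.84 and 3.80 on Matrigel and 4.02, 4.10 and 4.30 on collagen I, against 4.09, 4.09, 4.65 and 4.09 on plastic. Both Matrigel arrays were lower than the others, and 3 plastic arrays carried the same deposited value to the last digit. No comparison passed: Matrigel minus plastic was -0.41 ± 0.17 (limma adjusted p = 0.173), collagen I minus plastic -0.09 ± 0.15 (0.816) and Matrigel minus collagen I -0.32 ± 0.17 (0.40).

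Among other mesothelial markers Aldh1a2 and Dpp4 were called lower on both matrices, and most were dim or did not pass. Of 22 measured, 1 rose and 3 fell on Matrigel against plastic, and 0 rose and 4 fell on collagen I. Between the matrices limma called 0, and 4 had an unadjusted p under 0.05. Of all genes, limma called 10.4%, 6.12% and 2.67% in these comparisons. The median differences were -0.15, -0.14 and 0.00, beside -0.01, 0.00 and -0.02 over all genes. Aldh1a2, which makes retinoic acid in mesothelium and in stellate cells, measured 8.12 and 8.92 on Matrigel and 8.74, 9.05 and 8.12 on collagen I, against 10.85, 10.88, 11.05 and 10.67 on plastic. It fell by 2.34 ± 0.28 on Matrigel (limma adjusted p = 0.00174) and by 2.22 ± 0.24 on collagen I (0.00130), and all matrix arrays lay below all plastic arrays. Efemp1, a matrix protein of the fibulin family, measured 7.84 and 8.73 on Matrigel and 7.06, 7.13 and 6.55 on collagen I, against 9.16, 8.67, 9.87 and 8.18 on plastic. It fell by 2.06 ± 0.39 on collagen I (limma adjusted p = 0.0156), a call lost without collagen replicate 3 or plastic replicate 1 (0.0672 and 0.0567). On Matrigel the difference of Efemp1 was -0.69 ± 0.44 (limma adjusted p = 0.401). With the letter as a fixed block, although letters were not read as pairs there, it was -1.15 (0.00757).

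Slpi, a secreted inhibitor of leukocyte proteases, went the other way and rose by 2.30 ± 0.50 on Matrigel (limma adjusted p = 0.0218), a call lost without Matrigel replicate 1 or 2 (0.0794 and 0.123) and with only the 2 surfaces in the fit (0.0666). On collagen I Slpi differed by 1.73 ± 0.44 (adjusted p = 0.0588), and with the letter as a block by 2.04 (0.00195). The peptidase gene Dpp4, dim on both matrices, passed with adjusted p = 0.0492 on Matrigel and 0.0400 on collagen I, each of which was kept in 8 of 18 alternatives. The arrays whose removal ended the Dpp4 calls were each Matrigel and each collagen array and plastic replicates 1 and 2, with adjusted p up to 0.187, and with the letter as a block the collagen call was lost too (0.0617). The adhesion gene Cdh2 fell by 0.69 ± 0.17 on Matrigel (adjusted p = 0.0333) and lost the call without either Matrigel array, collagen replicate 2 or plastic replicate 1, 2 or 4 (up to 0.135). Lrrn4cl, named for its likeness to Lrrn4, fell by 0.83 ± 0.20 on collagen I (adjusted p = 0.0464). That call was lost without any array other than plastic replicate 2 (up to 0.157).

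The defining mesothelial marker Calb2, the calretinin gene, was dim throughout at 2.18 on Matrigel, 2.39 on collagen I and 2.35 on plastic. Pdpn, the podoplanin gene, which fibroblasts also express, was bright at 11.13, 10.67 and 10.81 on the same surfaces (limma adjusted p = 0.449 for Matrigel and 0.776 for collagen I against plastic). Of the 22 other mesothelial markers, 12 had a dim mean level and 10 were dim on every array. Of 4 measured genes listed as other uroplakins and tetraspanin partners, 3 were dim on every array. Limma called 0 of them in each comparison, with 1 unadjusted p under 0.05 on Matrigel against plastic and 0 in the others.

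Genes listed as cofactors or reported targets of WT1 changed in both directions. Of 16 measured, 2 rose and 4 fell on Matrigel and 3 rose and 5 fell on collagen I against plastic, and 1 fell on Matrigel against collagen I, so that 6 and 8 of 16 were called against 10.4% and 6.12% of all genes. The list's median difference was -0.03 and 0.03, close to the -0.01 and 0.00 of all genes. The list was chosen with earlier results of these arrays known, and several of its genes answer to many other regulators.

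Basp1, which encodes a cofactor that turns WT1 into a repressor, measured 8.11 and 8.86 on Matrigel and 8.82, 9.06 and 8.94 on collagen I, against 9.91, 10.10, 10.06 and 10.05 on plastic. It fell by 1.54 ± 0.18 on Matrigel (limma adjusted p = 0.00173) and by 1.09 ± 0.16 on collagen I (0.00523). Spry1, an inhibitor of growth factor signalling reported as a WT1 target in kidney, measured 5.14 and 5.46 on Matrigel and 5.89, 6.33 and 5.92 on collagen I, against 7.44, 8.22, 7.04 and 7.89 on plastic. It fell by 2.35 ± 0.30 on Matrigel (adjusted p = 0.00234) and by 1.60 ± 0.26 on collagen I (0.00835). For Basp1, Spry1 and Wt1 alike, no matrix array reached the lowest plastic array, and these calls held in all 19 alternatives of each comparison with plastic.

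Osr1, a zinc-finger factor of the intermediate mesoderm, fell by 0.84 ± 0.17 on Matrigel (limma adjusted p = 0.0149) and by 1.06 ± 0.15 on collagen I (0.00386), the first lost without Matrigel replicate 1 (0.105). The immediate-early factor gene Egr1, whose protein binds the same GC-rich letters as WT1, measured 9.72 and 10.27 on Matrigel and 9.10, 9.65 and 9.62 on collagen I, against 8.10, 8.05, 8.35 and 8.13 on plastic. It rose by 1.84 ± 0.19 on Matrigel (adjusted p = 0.00116) and by 1.30 ± 0.17 on collagen I (0.00317), and all matrix arrays lay above all plastic arrays. Wtip, named as a protein that interacts with WT1, rose on collagen I by 1.01 ± 0.14 (adjusted p = 0.00453). On Matrigel Wtip differed from plastic by 0.18 ± 0.16 (0.588) and was lower than on collagen I by 0.83 ± 0.17 (0.0448). That Wtip call between matrices was lost without collagen replicate 2 or 3, either Matrigel array, or plastic replicate 1, 2 or 4 (up to 0.146).

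**Figure D3:**
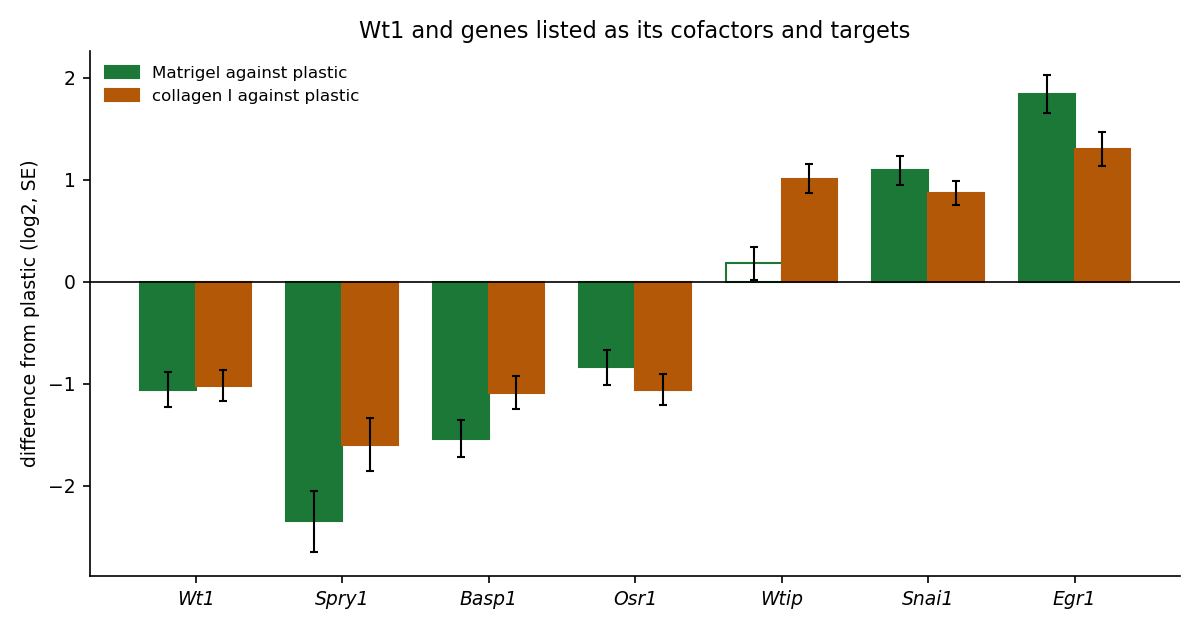
Difference from plastic (log2, vertical axis) of Wt1 and the genes with the smallest p among those called on its cofactor and target list, on Matrigel and on collagen I, with the standard error from limma over 9 arrays. Filled bars passed an adjusted p of 0.05 and the open bar, Wtip on Matrigel, did not; Wt1, Spry1, Basp1 and Osr1 lie below 0 on both matrices and Snai1 and Egr1 above it.

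The genes whose level followed that of Wt1 most closely over the 9 arrays, among 8699 genes over the dim level, were Nrp1 (r = 0.985), Txnip (0.983) and Ugp2 (0.983). Nrp1, a coreceptor for semaphorins and VEGF, measured 7.03 and 7.52 on Matrigel and 7.17, 7.32 and 7.28 on collagen I, against 8.34, 8.03, 8.34 and 8.33 on plastic. Plastic replicate 2 was the lowest plastic array for both Wt1 and Nrp1. The 9 arrays share surfaces and title letters, and these correlations are a description with no test.

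Krt7, Krt18 and Krt19 were dim on 6, 8 and 9 of the 9 arrays, and Krt8, with a mean of 5.10, on 0. That mean was close to the 5.17 of the hair keratin Krt85, so it does not by itself show expression. No keratin passed in any comparison with its brightest entry. Krt8 and Krt18 were highest on the Matrigel array of letter A. Krt8 (Entrez gene 25626) measured 5.88 and 5.10 on Matrigel and 5.21, 4.87 and 4.68 on collagen I, against 5.08, 5.08, 5.08 and 4.88 on plastic. Both Matrigel arrays lay above all plastic arrays, the second by 0.02, and 3 plastic arrays shared 1 value to the last digit. Krt8 differed by 0.46 ± 0.21 on Matrigel against plastic (limma adjusted p = 0.229), by -0.11 ± 0.19 on collagen I against plastic (0.819) and by 0.57 ± 0.22 on Matrigel against collagen I (0.237).

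Krt18 (Entrez gene 294853) measured 5.44 and 3.88 on Matrigel and 3.65, 3.95 and 3.66 on collagen I, against 3.51, 3.25, 3.73 and 3.30 on plastic. It was dim on 8 of 9 arrays, the exception being Matrigel replicate 1, which carries letter A. Matrigel minus plastic was 1.21 ± 0.36, with a 95% interval from 0.39 to 2.03 (limma adjusted p = 0.0703), collagen I minus plastic 0.31 ± 0.32 (0.681) and Matrigel minus collagen I 0.91 ± 0.38 (0.268). Within title letters, Matrigel minus plastic was 1.93 in A and 0.14 in S. Without Matrigel replicate 2 the Matrigel group is the letter A array alone, assumed to vary like the other surfaces, so that an adjusted p there restates that this array was high. The differences from plastic were then 2.0 for Krt18 (adjusted p = 0.00246) and 0.85 for Krt8 (0.0337). Without Matrigel replicate 1 the differences were 0.43 for Krt18 and 0.07 for Krt8. Against collagen I, Krt18 differed by 1.69 without Matrigel replicate 2 (0.0186).

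Krt19 was dim on all 9 arrays, at 3.18 and 2.63 on Matrigel and 2.61, 2.57 and 2.22 on collagen I, against 2.57, 2.73, 2.46 and 2.46 on plastic. It differed by 0.35 ± 0.17 on Matrigel against plastic (limma adjusted p = 0.257) and by -0.09 ± 0.15 on collagen I against plastic (0.814). Matrigel minus collagen I was 0.44 ± 0.18 (0.257). As for Krt8 and Krt18, its highest value was on the Matrigel array of letter A.

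Krt7 had its lowest levels on Matrigel and did not pass in any comparison. It measured 3.80 and 3.90 on Matrigel and 4.14, 4.22 and 4.43 on collagen I, against 4.23, 4.75, 4.22 and 4.56 on plastic. Both Matrigel arrays were below all other arrays. Krt7 was dim on 6 of 9 arrays, 2 of each surface, and its mean of 4.25 lay at the dim level. Matrigel minus plastic was -0.59 ± 0.16, which missed the threshold (limma adjusted p = 0.0510), and it passed in 3 of 19 alternatives (0.0351 with dim genes left out, 0.0394 without plastic replicate 3 and 0.0449 with the letter as a random block). Collagen I minus plastic was -0.18 ± 0.14 (limma adjusted p = 0.572), and Matrigel minus collagen I -0.41 ± 0.17 (0.256). Over the 9 arrays, which share surfaces and letters, Krt8 correlated with Krt18 at r = 0.81 and with Krt19 at 0.93, and Krt7 with Krt8 at -0.63 and with Krt18 at -0.77.

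The arrays hold 2 entries for Krt8 and 3 for Krt18, and these did not give the same answer. The dimmer Krt8 entry measured 5.47 and 4.94 on Matrigel and 4.09, 3.58 and 3.43 on collagen I, against 4.29, 4.27, 3.98 and 4.0 on plastic. In it both Matrigel arrays stood above all others. Put in place of the brighter entry, it was higher on Matrigel than on plastic by 1.07 ± 0.21 (limma adjusted p = 0.0146) and than on collagen I by 1.51 ± 0.22 (0.0152). The first was lost without Matrigel replicate 1 (adjusted p = 0.117, difference 0.80) and the other without Matrigel replicate 1 or collagen replicate 2 (0.0700 and 0.0619). The other entries of Krt18 differed between Matrigel and plastic by 0.20 ± 0.19 (adjusted p = 0.611) and 0.37 ± 0.18 (0.260). The human keratin 8 and 18 genes have many near-identical processed copies, and which entry reads the expressed gene was not tested. The correlations of Krt8 and Krt18 and the genes most similar to Krt8 rest on the brightest entries and share that limit.

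**Figure D4:**
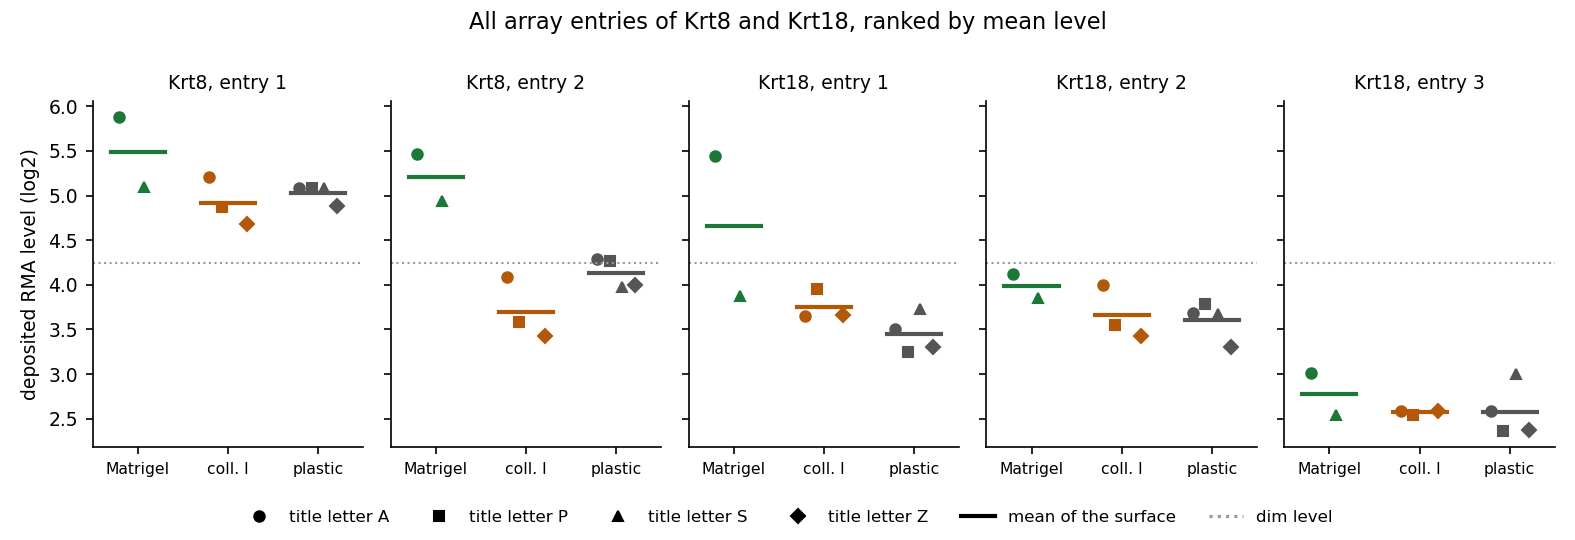
Deposited RMA level (log2, vertical axis) of all entries of Krt8 and Krt18 on each array, ordered by mean level within the gene. Points are arrays with a symbol for the title letter, bars are surface means and the dotted line is the dim level. On the Matrigel array of letter A the first entries reach 5.88 for Krt8 and 5.44 for Krt18, whereas the second Krt18 entry stays at 4.12 there.

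The 40 other keratins on the arrays gave 0 calls by limma in each of the 3 comparisons, with 4, 1 and 2 unadjusted p under 0.05 on Matrigel against plastic, collagen I against plastic and Matrigel against collagen I. Of these 40, 37 had a dim mean level and 34 were dim on every array. Their differences lay between -0.46 (Krt33b) and 0.28 (Krt87) on Matrigel against plastic and between -0.34 (Krt83) and 0.32 (Krt73) on collagen I against plastic. The brightest entry, Krt85, a hair keratin, had 5.17 on Matrigel, 5.15 on collagen I and 5.19 on plastic. Des, which encodes desmin, an intermediate filament protein of muscle and stellate cells, measured 4.85 and 4.83 on Matrigel and 6.09, 5.73 and 6.18 on collagen I, against 6.86, 6.68, 6.65 and 6.89 on plastic. It fell by 1.93 ± 0.13 on Matrigel (limma adjusted p = 0.000208) and by 0.77 ± 0.12 on collagen I (0.00580). Against plastic, limma called 5.85% of all genes lower on Matrigel and 3.17% lower on collagen I. Of 14 stellate cell markers, 3 fell on Matrigel against plastic, Des, Lum and Col3a1, and Des alone fell on collagen I. Without Matrigel replicate 1 Lum (adjusted p = 0.135) and Col3a1 (0.174) lost the call, which leaves 1 of the 3. Lum also lost it without plastic replicate 1 (0.0508) and Col3a1 without plastic replicate 2, 3 or 4 (up to 0.0587).

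Genes that anchor keratin filaments or define epithelia were mostly dim. Against plastic, limma called 10.4% of all genes on Matrigel and 6.12% on collagen I. Of 9 measured desmosome and keratin linker genes, 1 fell on each matrix against plastic and 0 rose. This was Jup, the plakoglobin gene, whose protein links cadherins to filaments, at 5.29 and 5.71 on Matrigel and 5.94, 5.92 and 5.62 on collagen I, against 6.78, 7.16, 6.77 and 6.39 on plastic. Jup fell by 1.28 ± 0.21 on Matrigel (limma adjusted p = 0.00646), lost without Matrigel replicate 1 (0.0631), and by 0.95 ± 0.18 on collagen I (0.0172), lost without collagen replicate 2 or 3 or plastic replicate 1 (up to 0.0712). Of 24 epithelial adhesion and identity genes, 22 had a dim mean level. The tight junction scaffold gene Tjp1, which fibroblasts also express, fell by 0.54 ± 0.08 on Matrigel (0.00520) and by 0.42 ± 0.07 on collagen I (0.0106).

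St14, the matriptase gene of epithelia, rose by 1.05 ± 0.15 on Matrigel against plastic (limma adjusted p = 0.00382), at 4.80 and 4.41 on Matrigel against 3.69, 3.42, 3.69 and 3.41 on plastic. It was also 1.06 ± 0.16 higher than on collagen I (0.0158), lost without Matrigel replicate 1 or collagen replicate 2 (0.0714 and 0.0590). Epcam, a surface protein of epithelia, had 3.57 and 2.25 on Matrigel and 2.12, 2.13 and 2.19 on collagen I, against 2.13, 1.80, 2.08 and 2.08 on plastic (adjusted p = 0.0994 for Matrigel against plastic). Cdh1, the E-cadherin gene, had 4.01 and 3.14 on Matrigel and 2.76, 3.23 and 3.17 on collagen I, against 2.84, 3.14, 3.14 and 3.12 on plastic (0.216). Both were dim on all arrays and highest on the Matrigel array of letter A, as were Krt8, Krt18 and Krt19. With that array as the only Matrigel array, and its spread taken from the other surfaces, the adjusted p was 0.00131 for Epcam and 0.0283 for Cdh1, which again restates its level.

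Of 7 transcription factors of the epithelial-mesenchymal transition, 3 rose and 0 fell on each matrix against plastic. Of all genes, 10.4% were called on Matrigel and 6.12% on collagen I. Median differences were 0.71 on Matrigel and 0.67 on collagen I, beside -0.01 and 0.00 over all genes. Differences were negative for 1 of the 7 on Matrigel (-0.25) and for 3 on collagen I (down to -0.19). Snai1, a repressor of E-cadherin, rose by 1.09 ± 0.14 on Matrigel (limma adjusted p = 0.00211) and by 0.87 ± 0.12 on collagen I (0.00383), at 8.93 and 8.58 on Matrigel and 8.50, 8.66 and 8.41 on collagen I, against 7.54, 7.65, 7.56 and 7.89 on plastic. Prrx1, a mesenchymal homeobox gene, rose by 0.71 ± 0.09 (0.00210) and by 0.86 ± 0.08 (0.000549). Twist2 rose by 1.42 ± 0.35 on Matrigel (0.0365) and by 1.85 ± 0.31 on collagen I (0.00935). Its call on Matrigel was lost without Matrigel replicate 1, collagen replicate 1 or 2, or any plastic array (adjusted p up to 0.235).

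Acinar and islet markers, like Krt8, Krt18 and Krt19, were highest on the Matrigel array of letter A. Of 18 measured acinar markers, 3 rose on Matrigel against plastic and 0 on collagen I by limma, where 0 had an unadjusted p under 0.05. Of all genes, 4.52% rose on Matrigel and 2.95% on collagen I. The mean level of the acinar list was 4.55 on the Matrigel array of letter A and 3.76 on that of letter S, between 3.28 and 3.59 on collagen I and between 3.26 and 3.41 on plastic. On the Matrigel array of letter A 9 of the 18 were dim, against 15 or 16 on all other arrays. The acinar protease gene Cpa1 measured 6.93 and 4.82 on Matrigel, against 3.47, 3.38, 3.03 and 2.81 on plastic. It differed by 2.70 ± 0.49 (limma adjusted p = 0.0108), and by 1.65 without Matrigel replicate 1. The Cpa1 call was kept in 17 of 18 alternatives (adjusted p up to 0.081). The protease gene Ctrb1 measured 10.42 and 8.13 on Matrigel, against 5.66, 5.75, 5.48 and 5.02 on plastic. The third acinar call, Gp2 (adjusted p = 0.0388), was lost in 11 of 18 alternatives, among them without Matrigel replicate 1, any collagen array or plastic replicate 1, 2 or 4 (up to 0.190). Of 15 islet markers 9 rose on Matrigel and 0 on collagen I by limma, where again 0 had an unadjusted p under 0.05. Of the islet calls only Scg3, Slc2a2, Iapp and Scg2 were tried in the alternatives. Iapp and Scg2 lost the call without Matrigel replicate 1, a fit that leaves a single Matrigel array. Calls were kept in 17 of 19 alternatives for Iapp, 16 of 19 for Scg2, 17 of 18 for Slc2a2 and 18 of 18 for Scg3. The calls of Pcsk2, Ppy, Ins2, Ins1 and Neurod1 were not refitted with arrays left out. The islet list mean was 7.06 and 6.0 on Matrigel, 4.97 to 5.54 on collagen I and 4.76 to 5.52 on plastic.

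Of 17 duct markers limma called 0 in each comparison, with 2, 2 and 0 unadjusted p under 0.05 on Matrigel against plastic, collagen I against plastic and Matrigel against collagen I, and 10 had a dim mean level. Their list mean was 4.49 to 4.52 on Matrigel, 4.32 to 4.46 on collagen I and 4.30 to 4.43 on plastic. On Matrigel against plastic 4.52% of all genes rose. Of 16 macrophage markers 1 rose there, the integrin gene Itgam, by 1.98 ± 0.48 (limma adjusted p = 0.0342). That call was lost in 8 of 19 alternatives, among them without either Matrigel array, collagen replicate 1 or plastic replicate 1, 2 or 4 (up to 0.156). The macrophage list mean was 7.54 to 7.85 on Matrigel, 6.22 to 7.20 on collagen I and 6.28 to 7.39 on plastic. The part of these cells in the keratin, Epcam and Cdh1 levels was not tested. Wt1 was 6.97 on the Matrigel array of letter A and 7.53 on that of letter S, and the part of these cells in its level was not tested either.

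**Figure D5:**
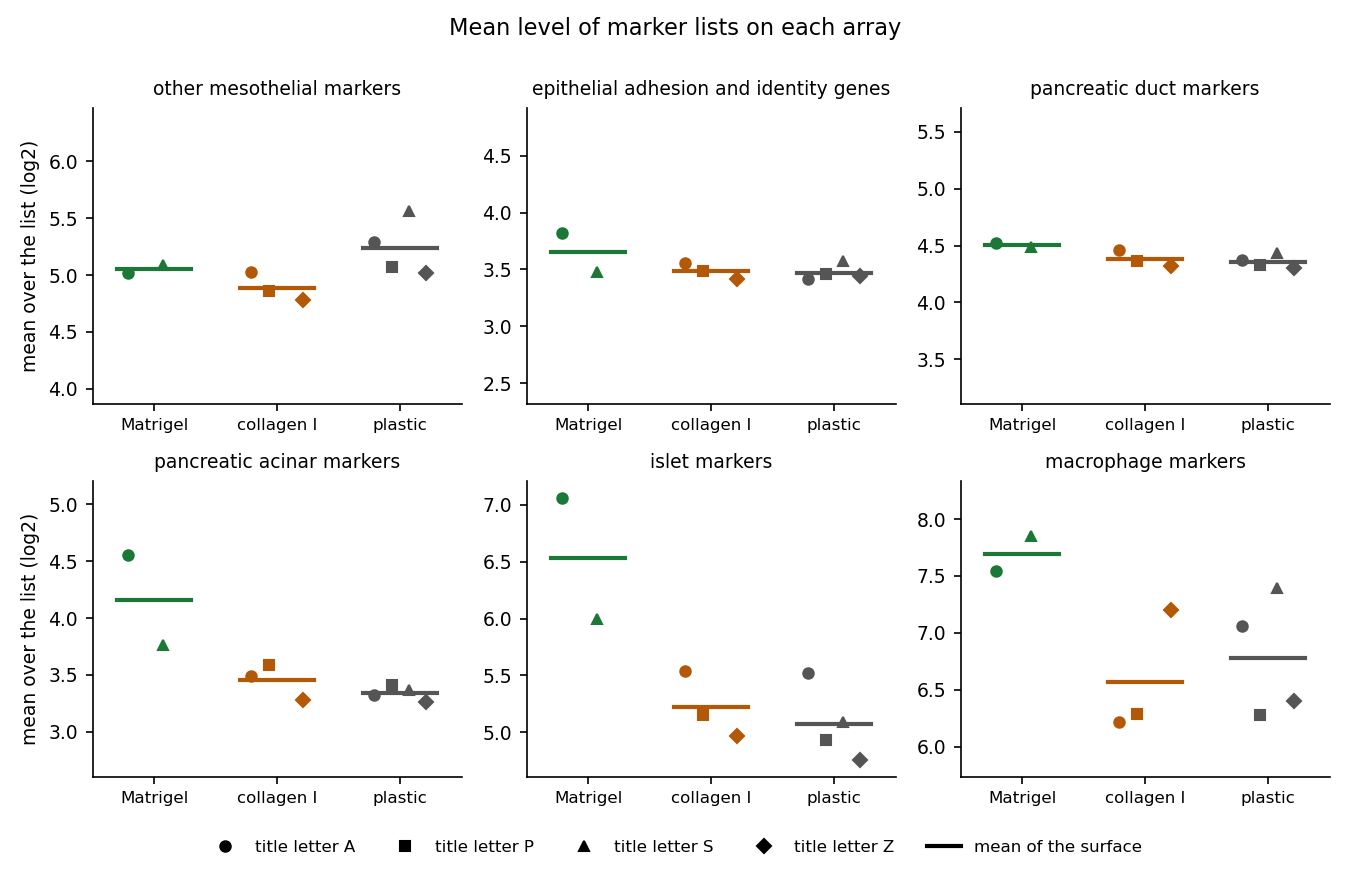
Mean level over each marker list (log2, vertical axis) on each array of Matrigel, collagen I and plastic; every panel spans at least 2.6 units and levels are not compared between lists. Points are arrays with a symbol for the title letter and bars are surface means. The acinar mean reaches 4.55 and the islet mean 7.06 on the Matrigel array of letter A, above all other arrays, while the duct mean stays between 4.30 and 4.52 on all 9.

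The other members over the dim level had these most similar genes over the 9 arrays, again with no test. Msln was closest to Med16 (r = 0.957), Zscan12 (0.923) and Pigs (0.891), and Krt7 to Rgs7bp (0.958), the tubulin gene Tuba1a (0.951) and the ribonucleotide reductase gene Rrm2 (0.940). Krt8 was closest to Mblac2 (0.963), Foxj2 (0.953) and Sos2 (0.948), each of which had its highest level on the Matrigel array of letter A. Sos2 measured 6.26 there, 5.86 on collagen replicate 3 and 5.99 on every other array, so its r rests on those arrays.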

How the data were processed

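Expression was measured on 9 Affymetrix Rat Gene 1.0 ST arrays. The deposited values are log2 levels from RMA, per the submitters' processing notes. The RMA software and the genome build were not given in the sources used here. Of 29215 entries, 15310 carry exactly 1 symbol in the array's probe table, 323 several and 13582 none, and the brightest entry per gene was kept (14506 genes). RefSeq identifiers matched 15279 of the 15310 and changed 0 symbols. Values identical to the last digit on at least 2 arrays occurred for 8192 genes.

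A linear model of the 9 arrays with a mean for each surface, leaving 6 residual degrees of freedom, was fitted by limma 3.58.1 under R 4.3.3, with moderated variances and Benjamini-Hochberg adjustment over all genes within each comparison. The script was tested on simulated data. The number of arrays limits the precision. Members, lists and alternatives were chosen with earlier results of these data known. The text names all members, the called list genes with the smallest p (up to 4 for each list and comparison, of which it prints a part), Calb2, Pdpn, Cdh1, Epcam, Vim and Des, and the 3 genes most correlated with each member over the dim level; Krt85 and the keratins at the ends of a range were chosen after their values were seen. Epithelial-mesenchymal, stellate, acinar, islet, macrophage, duct, epithelial, desmosome, mesothelial, uroplakin and WT1 lists are given by counts, as are LRRN, endothelial, Schwann and other intermediate filament lists in the closing section.

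As a check of pairing, each array's deviation from its surface mean was correlated across genes with that of the array sharing its letter. For collagen I and plastic r was 0.196 (letter A), 0.234 (letter P) and 0.269 (letter Z). Arrays of different letters on these surfaces gave -0.243 to 0.243. The 0.243, for collagen I of letter A and plastic of letter S, was above the same-letter value of A. Whether letters pair these surfaces was therefore not settled. For Matrigel and plastic r was -0.131 (letter A) and 0.406 (letter S), and letters were not read as pairs.

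Alternatives were median re-centring, repeated quantile normalization, dim genes left out, every entry tested, only the compared surfaces, trend and robust moderation, array weights, the letter as a fixed or random block, a 2-fold minimum, other entries of Krt8 and Krt18, and leaving out each array. Fits with only plastic arrays of shared letters, and leaving out arrays for the other keratin entries, were chosen after seeing the data.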

Additional observations from a re-analysis of the deposited data

Results flagged for a closer look

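In a group of 4 arrays a value was flagged when its gap to the nearest other array took more than 0.829 of the group's range, a test that chance passes in about 5% of groups. It was run on the plastic arrays of 43 genes, and 7 were flagged. Wt1 was lowest on plastic replicate 2, at 8.06 against 8.37 to 8.40 on the others, still above every matrix array. Calb2 (2.26), Epcam (1.80) and the proteoglycan gene Lum (8.97) were also lowest on plastic replicate 2. Upk1b was highest on plastic replicate 3, at 4.65, and Krt8 lowest on plastic replicate 4, at 4.88. The other 3 arrays of each shared 1 deposited value, so that any departure is flagged. Cdh1 was lowest on plastic replicate 1, at 2.84.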

How the results depend on the processing

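The fall of Wt1 against plastic kept its direction and its call in all 19 alternatives on each matrix. With all arrays 1 member was called on Matrigel against plastic, 1 on collagen I against plastic and 0 between the matrices. On Matrigel against plastic the count was 2 with dim genes left out and 2 with the letter as a random replicate block (Krt7 added each time), and 1 to 3 when leaving out single arrays, 3 without Matrigel replicate 2. On collagen I against plastic it was 2 with the letter as a fixed replicate block, where Msln was added. Between the matrices it was 0 to 1 when leaving out single arrays, Krt18 passing without Matrigel replicate 2, where the lone Matrigel array is assumed to vary like the other groups. Of all genes, 1504 were called on Matrigel against plastic, 888 on collagen I against plastic and 387 between the matrices. These counts were 431, 316 and 98 with a 2-fold minimum, and 759 to 1461, 552 to 870 and 68 to 352 when leaving out single arrays. With only the plastic arrays of shared letters, a fit chosen after seeing the data, 628 were called on Matrigel against plastic. Between the matrices limma called 0 with only those surfaces in the fit, where 2094 had an unadjusted p under 0.05, 257 with array weights and 66 with the letter as a fixed replicate block. The cause was not tested; fits that leave out arrays or surfaces rest on fewer arrays by construction. The block changed no other call of a member. Signal near or under the dim level limits Upk1b, Krt7, Krt18, Krt19 and the dimmer Krt8 entry. The brighter Krt8 entry lay near the level of the hair keratin Krt85.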

Other observations

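Other lists of the same kinds gave these counts, beside 10.4% of all genes called on Matrigel against plastic. Of 10 endothelial markers 1 rose on Matrigel against plastic, Tie1, by 1.05 ± 0.16 (limma adjusted p = 0.00462), and 7 were dim on every array. Of 6 Schwann and glial markers S100b rose on Matrigel by 1.09 ± 0.23 (0.0200), lost without either Matrigel array or plastic replicate 1 (up to 0.117), and on collagen I by 0.58 with the letter as a block (0.0187), against 0.49 without it (0.238). Of 12 intermediate filament genes other than keratins, Des and Prph fell on Matrigel, the peripherin gene Prph by 0.48 ± 0.08 at a dim level (0.00913), lost without Matrigel replicate 1 (0.0670). Both measured LRRN relatives of Lrrn4 were dim on every array, with 0 limma calls and 0 unadjusted p under 0.05.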
